A study of Danio rerio with 4 samples.

Results

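The 37 genes described here are cell cycle genes, chosen as a list of symbols, and all 37 were found among the 39988 genes of the count tables, each once. They were divided by role into 11 genes of DNA replication (*pcna*, *mcm2*, *mcm3*, *mcm4*, *mcm5*, *mcm6*, *mcm7*, *gins2*, *rrm1*, *tyms*, *dut*), 7 cyclin and kinase genes (*cdk1*, *ccna2*, *ccnb1*, *ccnb2*, *ccnb3*, *ccne1*, *ccne2*), 15 genes of mitosis (*mki67*, *top2a*, *aurka*, *aurkb*, *plk1*, *bub1*, *kif11*, *kif23*, *kif20a*, *nusap1*, *ube2c*, *birc5a*, *tpx2*, *cdca8*, *cdc20*) and 4 chromatin genes (*h2afx*, *hmgb2a*, *hmgb2b*, *hmgb3a*). The study sequenced single live cells of the zebrafish calvaria, the bones of the skull roof, from juveniles of 9–11 mm, before sutures have formed, and adults of 22–25 mm, in 2 libraries per stage. Juvenile replicate 1 pooled 20 fish and was depleted of cells with the epithelial reporter *cdh1:mlanYFP* (ecad:YFP in the labels), while juvenile replicate 2 pooled 20 fish and was depleted of *sp7*:GFP osteoblasts. Adult replicate 1 pooled 10 fish and was depleted of the same epithelial reporter, and adult replicate 2 pooled 10 Tubingen fish with no reporter gate. All 4 libraries are labelled with the strain tubingen, and only cells that excluded the dye DAPI were taken. Since each library is a pool of fish with its own gate, the spread between libraries of a stage covers fish and gate together, and p-values rest on 2 libraries per stage.

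A dividing cell first copies its DNA and then separates the copies. MCM proteins form the helicase that opens the DNA, PCNA is the clamp that holds the polymerase to it, and Rrm1, Tyms and Dut supply nucleotides. Cyclins E and A with their kinases drive the copying, cyclins A and B with Cdk1 drive entry into mitosis, and Plk1 and the Aurora kinases, kinesin motors and Top2a then condense and separate the chromosomes, until Cdc20 and Ube2c direct the destruction of cyclins by the anaphase-promoting complex. In non-dividing cells most of these genes are low, while the high mobility group genes *hmgb2a*, *hmgb2b* and *hmgb3a*, which encode DNA-bending proteins, are also used by cells outside the cycle.

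Of 21645 barcodes, 21311 cells were kept, with 8313, 7932, 2072 and 2994 cells in juvenile replicates 1 and 2 and adult replicates 1 and 2. Unless said otherwise, values are given in that order of libraries. The deposited counts were 22012568, 24854689, 6986539 and 7873717 unique molecular identifiers (UMIs, each a captured RNA molecule) in total, and the median cell held 1878, 2064, 2815 and 1929 UMIs. Between 14 and 101 barcodes were shared by a pair of libraries. Cells were put into a kind where at least 2 of its marker genes were detected and these were at least 2 times as many as those of any other kind, by marker lists that hold no member. This gave 1644 T cells, 1106 cartilage cells, 6886 neural cells, 3504 mesenchyme cells and 284 osteoblasts. Each kind held its own markers in the libraries used, with at most 4 of them at 0, and the 14 T cell markers summed in T cells to 7678, 4216, 6428 and 3797 UMIs per 1000000. Adult sums were small for T cells (45 and 35 cells), neural cells (129 and 25) and cartilage (12 and 7), and the *sp7* gate left 2 osteoblasts in juvenile replicate 2. A kind entered the comparisons below from a library only where it had at least 10 cells there.

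T cells and neural cells carried the most cell cycle RNA, and mesenchyme, cartilage and osteoblasts the least. The level of a gene is given below in CPM, its share of the UMIs of those cells times 1000000, and a summed level adds the genes named. In T cells the 37 members summed to 6593, 7023, 6817 and 1527 CPM. The first 3 libraries lay close together, and adult replicate 2 stood apart below them. In neural cells the sums were 3588, 6149, 1053 and 1848 CPM. Both juvenile libraries lay above both adult ones there. In mesenchyme, the connective tissue that includes the cells between the bones, the sums were 769.6, 1907, 404 and 428 CPM. The juvenile libraries again lay above the adult ones, and they differed from each other more than the adult libraries did. Cartilage held 515, 1196 and 442 CPM in the first 3 libraries, and osteoblasts 902, 443 and 368 CPM in juvenile replicate 1 and the adults. Within each library, T cells ranked first in 3 of 4 libraries and neural cells in adult replicate 2, where their exact Poisson 95% intervals overlapped (1249 to 1849 against 1522 to 2224 CPM). In juvenile replicate 1 cartilage (515 CPM) lay below mesenchyme and osteoblasts, and in adult replicate 1 the intervals of mesenchyme, cartilage and osteoblasts overlapped. Poisson and binomial intervals here cover counting error only.

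The 4 chromatin genes made up most of these sums, between 63.8% and 90.3% of the members' UMIs. Without them the other 33 members summed to 1609, 2413, 1831 and 553 CPM in T cells, 747, 1210.1, 160.3 and 561 CPM in neural cells and 128, 384, 54.1 and 69.4 CPM in mesenchyme. The T cell level was 12.6, 6.28, 33.9 and 7.97 times that of mesenchyme in the same library, and the neural level 5.83, 3.15, 2.97 and 8.09 times. The order of the 2 kinds was thus the same in each library but adult replicate 2. Cartilage without the chromatin genes held 85.4, 251 and 63.2 CPM, and osteoblasts 191, 46.8 and 35.7 CPM. Erythroid cells of juvenile replicate 1 (278 cells), a kind of mostly non-dividing cells, held 88.3 CPM, close to cartilage of that library. Neurons, the part of the neural cells also taken as mostly non-dividing, held 3.83, 2.09, 2.82 and 3.90 times the level of mesenchyme. What part of the neural level comes from dividing cells was not tested.

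**Figure D1:**
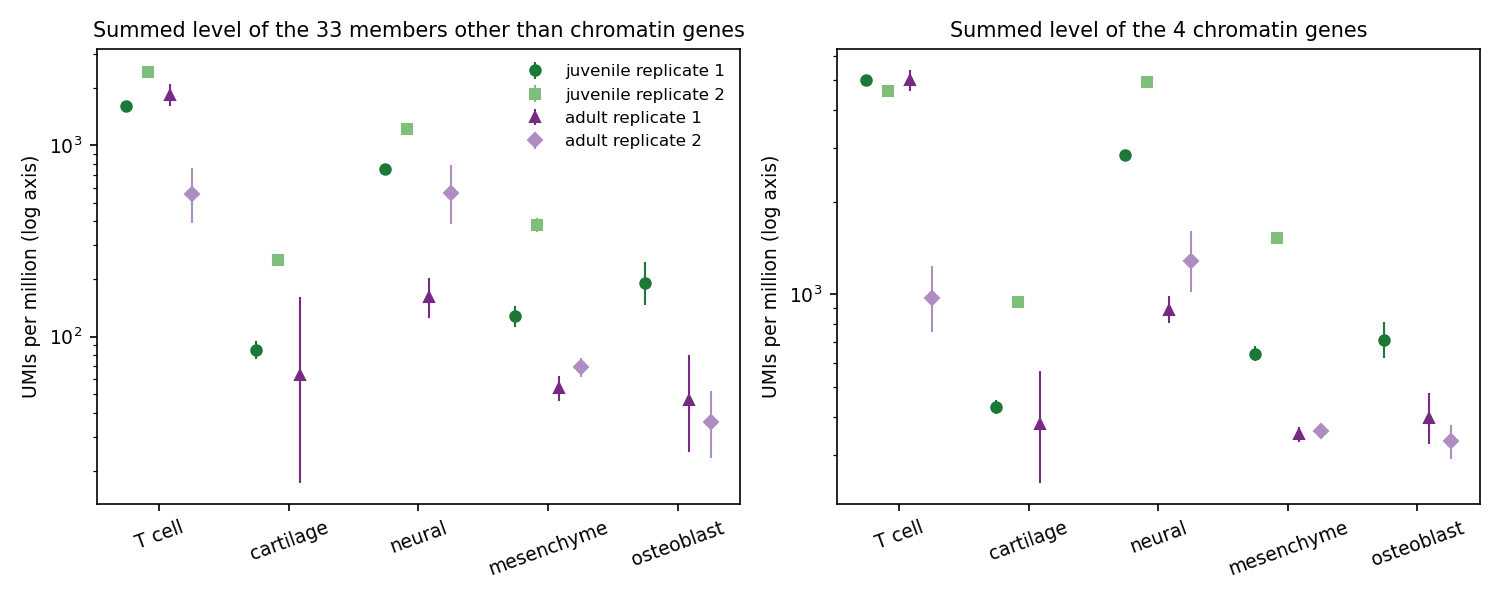
Summed level of the members in CPM (log axes) by cell kind and library, for the 33 members other than chromatin genes (left) and the 4 chromatin genes (right). Points are libraries with at least 10 cells of the kind, and bars are exact Poisson 95% intervals. T cells of 3 libraries sit between 1609 and 2413 CPM on the left, and adult replicate 2 lies at 553 CPM.

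The share of cells with at least 3 members detected was highest in juvenile T cells, and kinds differed in depth. In T cells it was 43, 64.7, 24.4 and 8.57%, with exact Clopper-Pearson 95% intervals of 39.7 to 46.3%, 61 to 68.3%, 12.9 to 39.5% and 1.80 to 23.1%. Both juvenile libraries lay above both adult ones. The shares were 28.8, 43.7, 31 and 28% in neural cells and 17.6, 34.9, 7.57 and 4.95% in mesenchyme. Neural cells of the 2 stages overlapped in these shares, which are not set to equal depth, while mesenchyme did not. Cartilage had 30.2, 53.9 and 16.7% in the first 3 libraries, and osteoblasts 35.1, 4.69 and 3.73% in juvenile replicate 1 and the adults. Cartilage cells were the deepest, with a median of 5612 and 5711 UMIs in the juvenile libraries against 1014 and 1337 in neural cells, so that these shares cannot be ranked between kinds as they stand. Of the mesenchyme cells with at least 3 members, 30.8, 35.2, 41.4 and 39% had none but chromatin genes.

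Cells were therefore also thinned to 1000 UMIs each, which left out shallower cells (730 of 886, 652 of 678, 41 of 45 and 26 of 35 T cells stayed, and 1519 of 2979, 2226 of 3753, 117 of 129 and 18 of 25 neural cells). The share with at least 3 of 37 members was then 28.5, 39.9, 22 and 3.85% in T cells, 20.1, 30.5, 4.27 and 11.1% in neural cells, 2.62, 7.91, 0.220 and 0.604% in mesenchyme and, in the first 3 libraries, 1.86, 9.24 and 0% in cartilage. At equal depth cartilage thus lay below T cells and neural cells in both juvenile libraries. Neural cells of the 2 stages, which overlapped unthinned, did not overlap here, with both juvenile shares above both adult ones. With the 4 chromatin genes also left out, the shares were 13.4, 19.9, 17.1 and 0% in T cells, 5.07, 9.61, 0 and 5.56% in neural cells and 0.349, 2.82, 0 and 0.0755% in mesenchyme. Adult replicate 1 of the T cells then lay between the juvenile libraries, so that the stages overlapped. Neural cells overlapped too, through adult replicate 2, where 18 cells stayed. Cartilage had 0.206, 2.67 and 0% and osteoblasts 3.85, 0 and 0%, on 2 of 52 thinned osteoblasts in juvenile replicate 1. Erythroid cells of juvenile replicate 1 (median 2980 UMIs), a mostly non-dividing kind, had 8.99% with at least 3 of 37 members unthinned and 0.775% thinned, and 0.388% thinned with the 33 members. The last value is above those of mesenchyme and cartilage in that library, 0.349% and 0.206% of 573 and 485 thinned cells. All 3 shares rest on very few cells, so they neither rank these kinds nor show expression above background. Summed over the 33 members, erythroid cells held 0.689 times the level of mesenchyme in that library. Juvenile replicate 2 held 7 erythroid cells, too few for the same comparison. Neurons had 2.78 and 5.14% thinned with the 33 members in the juvenile libraries. Adult mesenchyme had 0 of 925 cells with at least 3 of the 33 members in adult replicate 1, which allows a share of up to 0.398% by the exact interval, and 7 of 1556 in adult replicate 2.

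**Figure D2:**
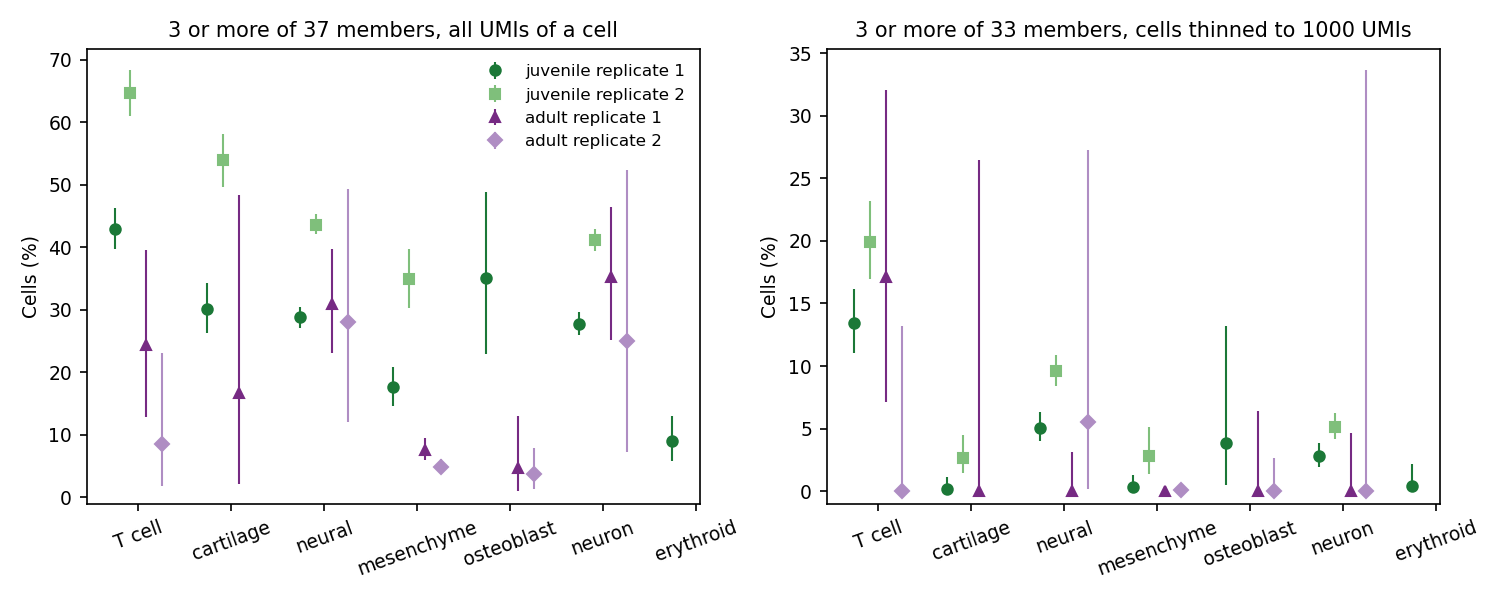
Share of cells (%) with at least 3 of the 37 members detected using all UMIs (left) and with at least 3 of the 33 members other than chromatin genes after thinning to 1000 UMIs (right), by cell kind and library. Points are libraries with at least 10 cells and bars exact Clopper-Pearson 95% intervals. Juvenile cartilage stands at 30.2% and 53.9% on the left and at 0.206% and 2.67% on the right.

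Of the 34 members tested, 33 passed between T cells and mesenchyme by edgeR (quasi-likelihood fits with library as a block, p-values adjusted across all genes by Benjamini-Hochberg), 32 of them higher in T cells and 1, *hmgb3a*, lower. Among all 13458 genes tested, 12.6% were higher in T cells and 24.6% lower. The median log2 fold change was 3.43 over the members and -0.18 over all genes. The members not tested were *ccnb2*, *ccne1* and *bub1*, which did not pass the filter on low counts, and *kif20a* did not pass the test (log2 fold change 1.06 ± 0.68 SE, adjusted p = 0.235 in edgeR). A member with no UMI in one kind of a library is counted at 0 there, and its fitted fold change depends on the prior count.

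Replication genes were higher in T cells without exception among the 11, with log2 fold changes from 2.35 to 3.58. *pcna* had 275, 475, 143 and 247 CPM in T cells and 35.9, 66.3, 34 and 39.7 CPM in mesenchyme. The 4 T cell values lay above all 4 of mesenchyme, at a log2 fold change of 2.35 ± 0.43 (SE; edgeR adjusted p = 1.36e-05), the smallest of the role. *mcm5*, a subunit of the helicase, had 36.1, 72.8, 31.7 and 29.1 CPM against 2.99, 10.6, 1.21 and 0.482 CPM in mesenchyme (log2 fold change 3.54 ± 0.48, edgeR adjusted p = 3.30e-08). *dut*, whose product removes dUTP, had 157, 384, 23.8 and 189 CPM in T cells and 23.4, 19.8, 3.04 and 5.30 CPM in mesenchyme. The adult value of *dut* in replicate 2 came from 2.86% of its 35 cells, a single cell with 13 UMIs.

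Among cyclins and kinases all 5 tested were higher in T cells. *ccnb1*, cyclin B1, had 43.2, 30.3, 71.3 and 0 CPM in T cells and 0.498, 4.94, 0.607 and 0.482 CPM in mesenchyme, a log2 fold change of 4.38 ± 0.62 (SE; edgeR adjusted p = 9.27e-08). *cdk1*, its kinase partner, had 61.5, 55.1, 63.4 and 0 CPM against 3.99, 16.2, 0 and 0.241 CPM (log2 fold change 3.48 ± 0.58). For both genes the first 3 T cell libraries lay above all mesenchyme values, and adult replicate 2 had no UMI.

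Of the mitosis genes 13 of 14 tested were higher in T cells, and they held the largest differences. *mki67*, whose product coats mitotic chromosomes and marks dividing cells, had 116, 167, 388 and 14.5 CPM in T cells and 4.49, 12, 0.304 and 0 CPM in mesenchyme. Its log2 fold change of 5.66 ± 0.68 (SE; edgeR adjusted p = 1.55e-09) was the largest among the members. *cdc20*, the activator of the anaphase-promoting complex, had 37.9, 33.3, 143 and 0 CPM in T cells and 1.50, 5.64, 0 and 0 CPM in mesenchyme (log2 fold change 4.83 ± 0.70). *cdca8*, a subunit of the chromosomal passenger complex with Aurora B, had 29.8, 34.4, 47.6 and 0 CPM against 0.498, 4.23, 0 and 0.241 CPM, and *aurkb* itself 39.6, 56.5, 39.6 and 0 CPM against 1.99, 8.47, 0.607 and 0.722 CPM. *nusap1*, a microtubule-binding protein of the spindle, had 101, 68.4, 182 and 0 CPM in T cells and 3.99, 21.9, 0.304 and 0.241 CPM in mesenchyme. In each of these 5 genes adult replicate 1 was as high as or higher than a juvenile library, whereas adult replicate 2 had at most 1 UMI. The kinesin gene *kif11* (40.1, 29.9, 63.4 and 0 CPM), *top2a* (52.6, 110.5, 63.4 and 0 CPM), which encodes the topoisomerase that untangles chromosomes, and *ube2c* (84.6, 68.4, 111 and 0 CPM) likewise had no UMI in adult replicate 2, with log2 fold changes of 3.85, 3.74 and 3.67 against mesenchyme.

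The chromatin genes divided. *hmgb2a* was the highest member in T cells, at 3307, 2798, 3622 and 713 CPM against 336, 586, 199 and 217 CPM in mesenchyme (log2 fold change 2.69 ± 0.42 SE, edgeR adjusted p = 6.23e-07). *h2afx*, which encodes the histone variant marked at DNA breaks, had 518, 336, 111 and 160.0 CPM against 18.9, 12.7, 29.8 and 8.43 CPM (log2 fold change 3.54 ± 0.51). In both genes every T cell value exceeded every mesenchyme value. *hmgb3a* went the other way, with 66.8, 160.4, 0 and 0 CPM in T cells and 96.7, 619, 33.7 and 50.3 CPM in mesenchyme (log2 fold change -1.70 ± 0.53, edgeR adjusted p = 0.00778). Juvenile replicate 2 was the highest library for *hmgb3a* in T cells, neural cells, mesenchyme and cartilage. Neural cells had 524, 2263, 156 and 248 CPM of *hmgb3a*, the most of the 5 kinds in both juvenile libraries, and in juvenile replicate 2 it was detected in 78.3% of neural, 76.1% of mesenchyme, 77.1% of cartilage and 42.5% of T cells, against 42.5%, 25.5%, 39.4% and 15.4% in juvenile replicate 1. Of the 27 neural markers, 25 or 26 had a UMI in T cells and in mesenchyme of each juvenile library, at a sum of 477 and 418 CPM in mesenchyme and 541 and 316 CPM in T cells, while the adult sums were 83.2 and 96.6 CPM in mesenchyme and 31.7 and 0 CPM in T cells. In adult T cells 23 and 27 of the 27 were at 0. The part of neural RNA in the *hmgb3a* values was not tested. The *hmgb* genes are paralogs, and how far the authors' counting split reads between them was not tested either.

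**Figure D3:**
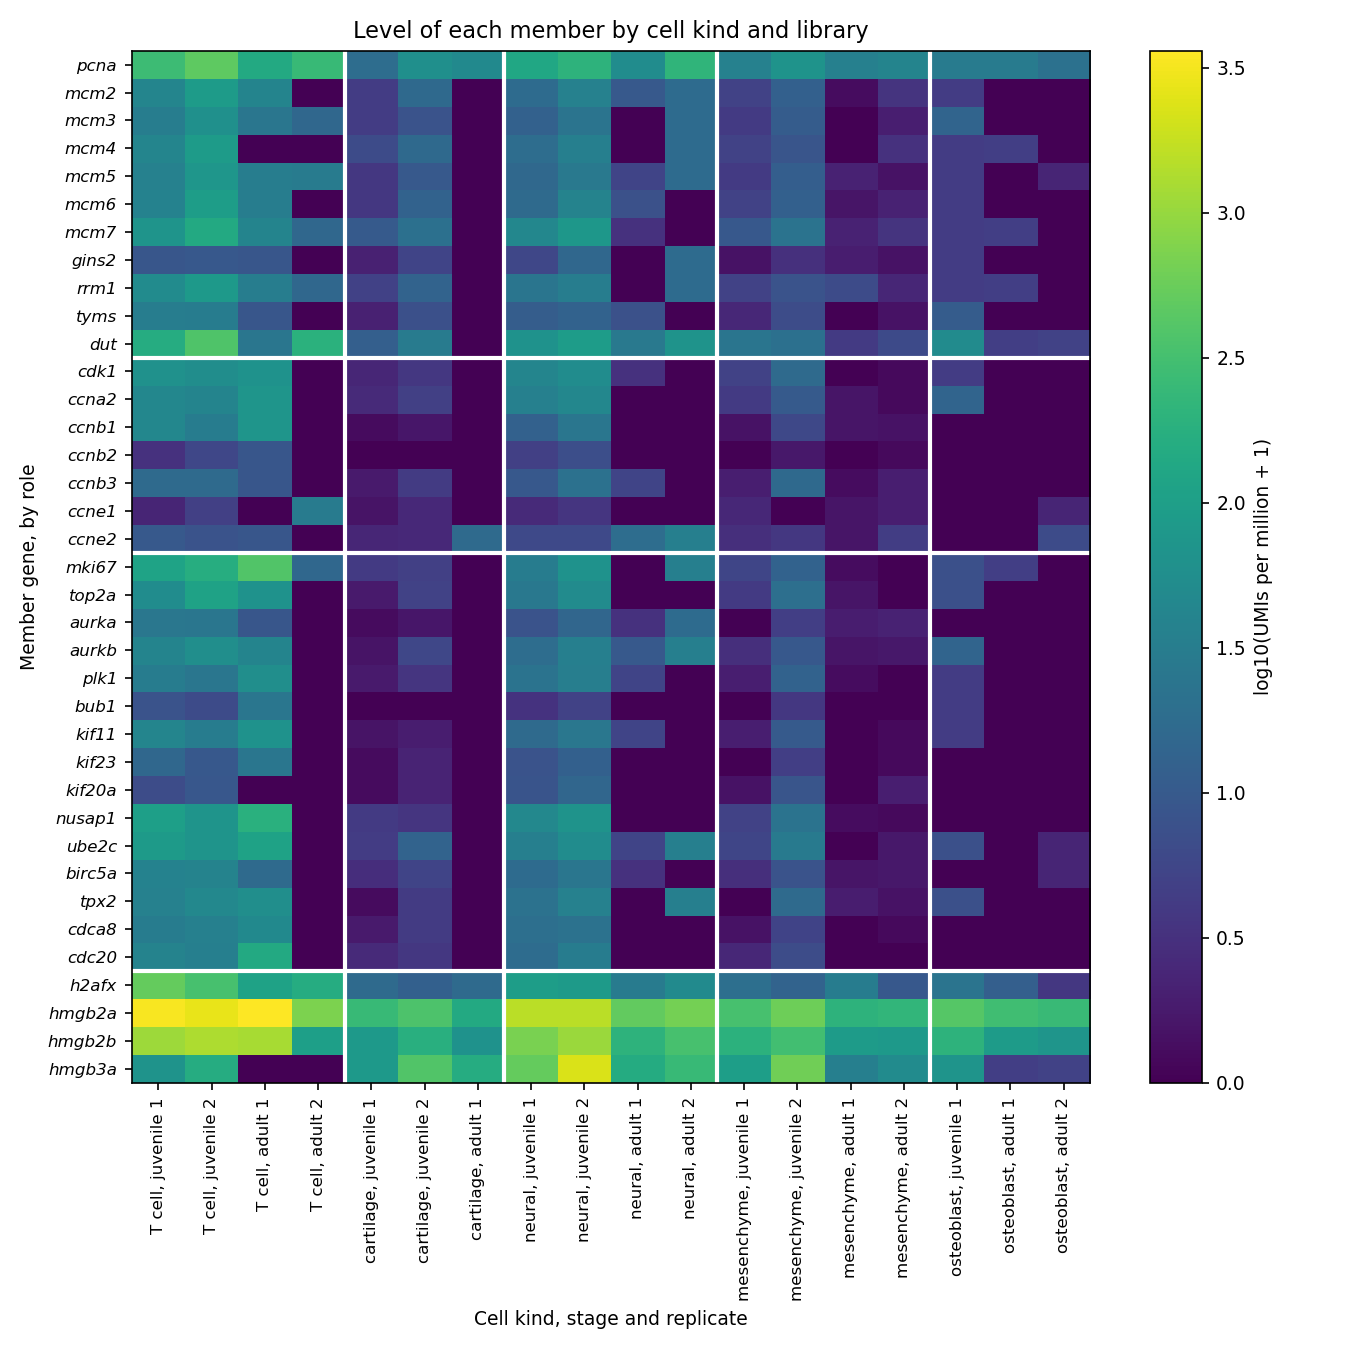
Level of each of the 37 members, as log10(CPM + 1), in each cell kind and library with at least 10 cells. Rows are grouped by role (replication, cyclins and *cdk1*, mitosis, chromatin) and columns by kind, then stage and replicate. The T cell and juvenile neural columns are the brightest, *hmgb2a* reaches 3622 CPM in T cells of adult replicate 1, and T cells of adult replicate 2 have no UMI of most mitosis genes.

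In neural cells, which comprise neurons and radial glia, 15 of the 34 members tested were higher than in mesenchyme and none was lower, beside 22.4% of all genes that were higher. The median log2 fold change was 1.30 over the members and 0.10 over all genes. Markers of T cells, which held more cell cycle RNA, also differed between these kinds. The 14 T cell markers summed to 865, 355, 13.4 and 0 CPM in neural cells and 122, 64.9, 34.6 and 4.82 CPM in mesenchyme. The part of T cell RNA in the neural values was not tested. By role these were 10 of 14 mitosis genes, 3 of 5 cyclin and kinase genes, 2 of 11 replication genes and none of the 4 chromatin genes. *cdca8* had 18.7, 21.2, 0 and 0 CPM in neural cells, and its log2 fold change against mesenchyme was 2.49 ± 0.67 (SE; edgeR adjusted p = 0.00185), the largest of the 15. *cdc20* had 16.8, 30.3, 0 and 0 CPM (log2 fold change 2.32 ± 0.69, edgeR adjusted p = 0.00507). In both genes the juvenile values were above those of juvenile mesenchyme, and neither adult library had a neural UMI. *mki67* had 30.3, 64.8, 0 and 33 CPM (log2 fold change 2.10 ± 0.64), with adult replicate 2 resting on 2 UMIs. *aurkb* had 17.9, 33.8, 8.91 and 33 CPM and *ccna2* 34.5, 43.8, 0 and 0 CPM, *kif23* 7.07, 11.3, 0 and 0 CPM and *ccnb1* 11.6, 23.6, 0 and 0 CPM. *plk1*, the Polo kinase of mitotic entry, had 21.8, 31.8, 4.45 and 0 CPM, *cdk1* 40.9, 52.4, 2.23 and 0 CPM and *kif11* 16, 24.4, 4.45 and 0 CPM. Their log2 fold changes lay between 1.66 for *kif11* and 1.90 for *aurkb*. The other 5 that passed were *tpx2*, *nusap1*, *dut*, *birc5a* and *mcm5*, with log2 fold changes from 1.17 for *mcm5* to 1.57 for *tpx2*.

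The neural count turned on scaling and on 1 library. Scaling to library totals in place of TMM (the trimmed mean of M-values, which assumes that most genes do not change) moved the median of all genes from 0.10 to 1.08 and the count from 15 to 34, while 52.1% of all genes were then higher, and without juvenile replicate 1 it was 2. The median of the members was 1.30 with TMM and 2.25 with library totals, above that of all genes under both. The T cell count ranged from 25 to 35 over its alternatives.

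Cell cycle RNA was uneven within the neural kind. Cells with more radial glia markers, the stem-like cells of the brain, held 1569, 3523 and 181 CPM of the 33 members in juvenile replicates 1 and 2 and adult replicate 1 (322, 397 and 41 cells), and cells with more neuron markers held 490.1, 804 and 152 CPM. Juvenile radial glia thus lay above neurons of the same library, and the adult cells lay close together. With at least 3 of the 33 members, radial glia had 16.5, 38.8 and 4.88% of cells and neurons 3.08, 5.94 and 1.18%, at median depths of 1181, 1899 and 2532 and 1002, 1312 and 3270 UMIs. After thinning to 1000 UMIs the juvenile shares were 13.9 and 36.3% in radial glia and 2.78 and 5.14% in neurons. *pcna* had 249 and 561 CPM in juvenile radial glia and 95.3 and 131 CPM in juvenile neurons. *hmgb3a* had the opposite order, with 337 and 923 CPM in radial glia and 585 and 2560 CPM in neurons. These values are descriptions, since no test was made within the kind.

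Within juvenile T cells, those with a UMI of *rag1* or *rag2*, the recombinase genes of developing lymphocytes, held more cell cycle RNA than the others. The 33 members summed to 2366 and 3183 CPM in 285 and 193 cells with *rag* UMIs and to 1291 and 2107 CPM in 601 and 485 cells without. The thinned share of cells with at least 3 of the 33 members was 21.7 and 27.3% against 10.2 and 17.1%. Both libraries had the same order. Of the adult T cells, 1 had a *rag* UMI.

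**Figure D4:**
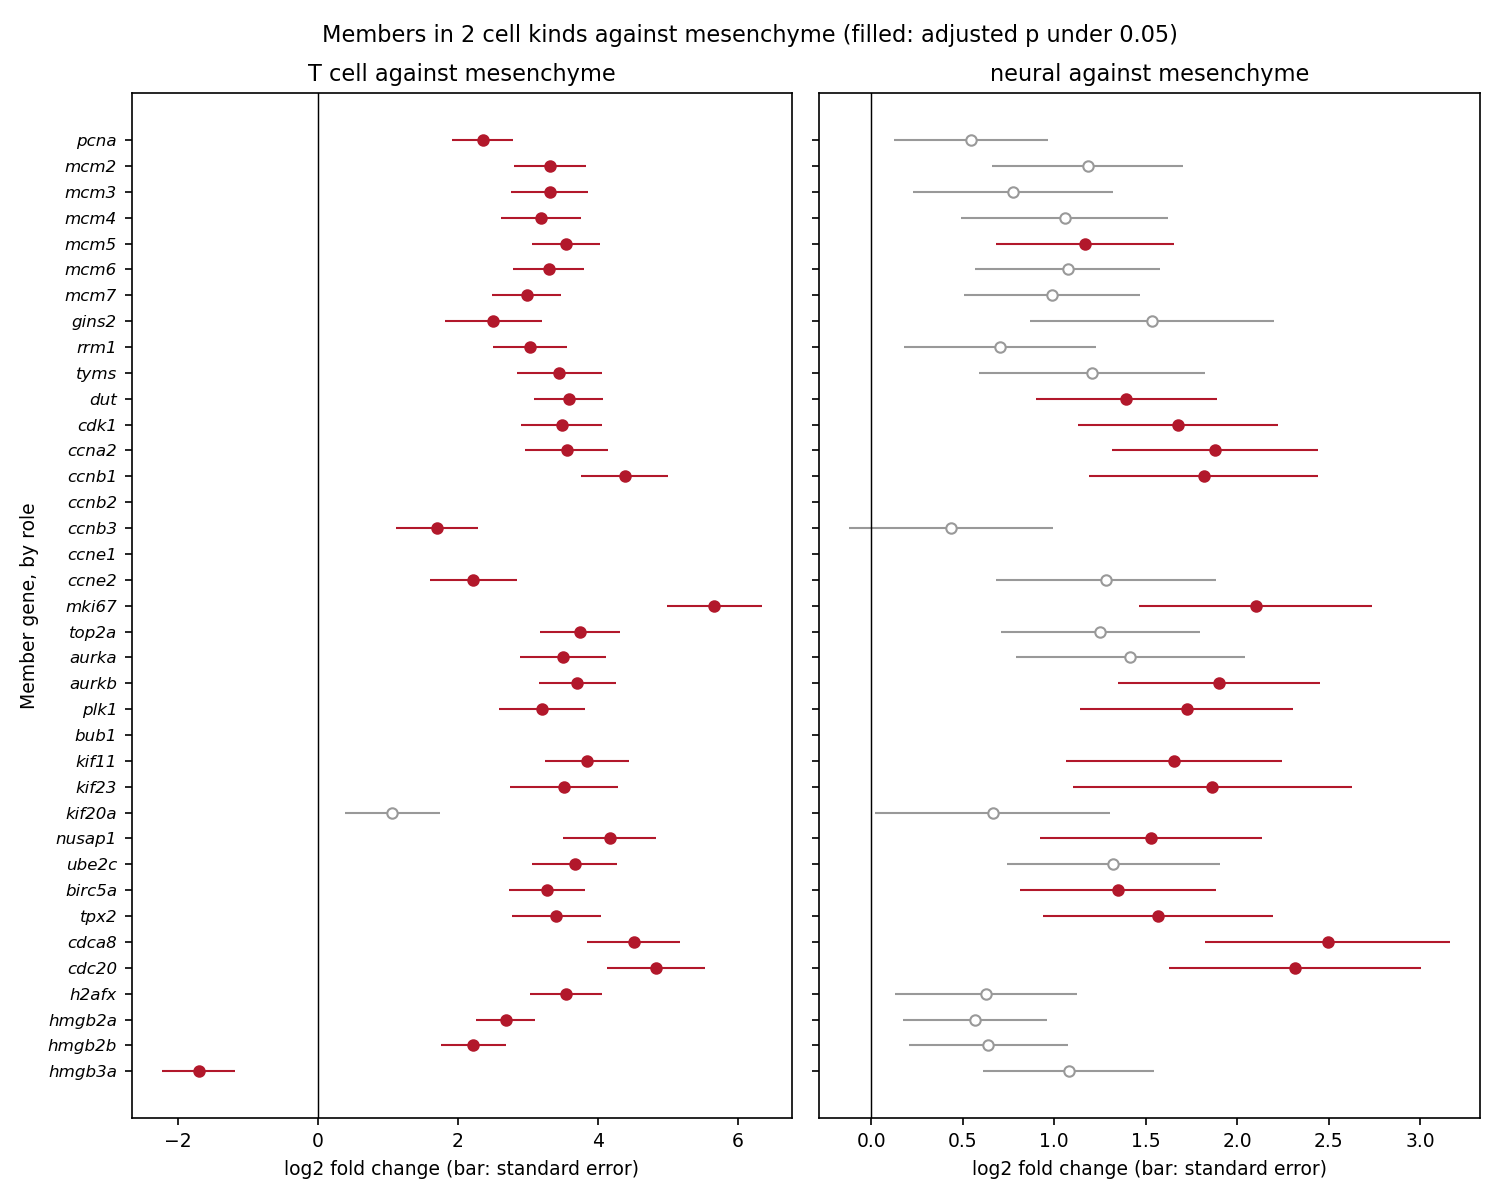
Log2 fold change of each member tested in T cells (left) and neural cells (right) against mesenchyme, by edgeR with library as a block. Bars are standard errors, and filled red points passed at an adjusted p under 0.05. In T cells 33 of 34 members passed and *hmgb3a* alone lay below 0, and in neural cells 15 passed, all above 0.

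Few members passed in the skeletal kinds. In cartilage 0 of 34 members passed in edgeR, none had an unadjusted p under 0.05, and DESeq2 also called 0, beside 11.9% of all genes called in either direction. The median log2 fold change was -0.14 over the members and -0.11 over all genes. *pcna* had 18, 58.2 and 47.4 CPM in cartilage, *mki67* 3.04, 3.77 and 0 CPM, *mcm5* 2.76, 8.80 and 0 CPM, *hmgb2a* 253, 372 and 142 CPM and *h2afx* 16, 11.3 and 15.8 CPM in the first 3 libraries. Each juvenile value lay below that of the same library in mesenchyme for *pcna*, *mki67*, *mcm5*, *hmgb2a* and *h2afx*, within a few-fold, and the adult sum of 12 cells rests on 3 UMIs of *pcna* and none of *mki67* and *mcm5*. The estimates were -0.23 ± 0.51 for *pcna* and -0.05 ± 0.99 for *mki67* (log2 fold change ± SE) with TMM, and 0.53 ± 0.55 for *mcm5*, opposite in sign to its CPM. None of the 3 passed, and differences within these errors were not detectable.

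In osteoblasts 1 of 34 members passed, *hmgb3a*, which was lower than in mesenchyme, beside 5.78% of all genes that were lower. It had 68.1, 3.60 and 4.12 CPM in juvenile replicate 1 and the 2 adult libraries, below mesenchyme of the same library each time (log2 fold change -1.88 ± 0.61 SE, edgeR adjusted p = 0.0426). DESeq2 called no member, and the call was also lost without juvenile replicate 2, without either adult library, without the library block and with the looser gate. Neural markers summed to 253, 64.8 and 24.7 CPM in these osteoblasts, also below mesenchyme of the same library, and their part in the difference was not tested. The levels of *pcna* (29.2, 28.8 and 20.6 CPM) and *hmgb2a* (422, 292 and 254 CPM) did not differ from mesenchyme beyond the test's threshold.

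Of 96 other cell cycle genes listed by function, 95 were found and 79 could be tested between kinds. In T cells 62 of the 79 passed against mesenchyme, 59 higher, beside the 12.6% of all genes given above, and 3 lower, including 20 of 22 replication genes and 32 of 34 mitosis genes. The largest were *incenp* (log2 fold change 5.26), the scaffold of the passenger complex, *ndc80* (4.96), a kinetochore subunit, and *pbk* (4.92), a mitotic kinase. The 3 lower genes were *cdkn1cb* (-2.60) and *btg2* (-1.65), which restrain the cycle, and *ccnd2b* (-2.50), a D-type cyclin of the G1 phase. In neural cells 30 passed, 24 of the 79 higher, beside the 22.4% of all genes given above, and 6 lower. The higher ones included *ndc80* (3.0) and *plk4* (2.76), the kinase of centriole duplication, and the inhibitor gene *cdkn2c* (2.66), which was 0.64 and lost its call without adult replicate 1. Lowest was *ccnd2b* (-3.42), followed by *btg2* (-1.86) and *cdk4* (-1.64), the kinase of D-type cyclins, whose call was lost with DESeq2, with library totals (-0.66) and without juvenile replicate 1. In cartilage *smc4*, a condensin subunit, was higher (log2 fold change 2.05) and *ccnd2b* lower (-1.88), both lost with DESeq2, without the library block and without juvenile replicate 1, where *smc4* had 0.39, and in osteoblasts *smc4* was higher (3.79, edgeR adjusted p = 5.95e-05).

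Between stages, 7 members fell in adult neural cells, while *pcna*, *mki67*, *mcm5* and others did not pass. In edgeR, 7 of 34 members tested passed and all 7 fell, beside 1.47% of all genes that fell. In all, 33 of the 34 had a lower estimate in adults, with *ccne2* the exception (5.20, 5.01, 17.8 and 33 CPM). The median log2 fold change was -2.63 over the members and -0.25 over all genes, and -2.09 where the 8 tested members with no adult UMI were set at their bound. The adult cells held 509731 UMIs together, so that 3 UMIs, taken as the floor over both adult libraries, are 5.89 CPM. Here and below, a bound sets the juvenile level pooled over both libraries against such a floor. Juvenile replicate 1, the lower of the juvenile libraries in each gene given a bound, would by itself give a smaller one. *nusap1* fell from 44.9 and 66.3 CPM in the juvenile libraries to no UMI in either adult one, and was at least 9.86-fold higher in juveniles (edgeR adjusted p = 0.00129). Likewise without adult UMIs were *top2a* (25.4 and 50.4 CPM in juveniles, at least 6.91-fold higher), *ccna2* (34.5 and 43.8 CPM, at least 6.83-fold) and *cdc20* (16.8 and 30.3 CPM, at least 4.26-fold). *mcm7* had 43.6, 76.1, 2.23 and 0 CPM, and pooled over libraries the juvenile level was 32.4 times the adult one, with a counting interval of 5.79 to 1280.2 since adults held 1 UMI (edgeR adjusted p = 0.00456). *cdk1*, also with 1 adult UMI, had 40.9, 52.4, 2.23 and 0 CPM and a juvenile level 24.4 times the adult one (interval 4.37 to 967).

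*hmgb3a* was the one chromatin gene that passed in neural cells, with 524, 2263, 156 and 248 CPM and a log2 fold change of -2.92 ± 0.71 (SE; edgeR adjusted p = 0.00685), and the juvenile libraries differed from each other more than juvenile replicate 1 did from either adult one. Without juvenile replicate 2 the log2 fold change was -1.50. *hmgb2a* had 1532, 1538, 508 and 660.1 CPM and *h2afx* 95, 85.1, 28.9 and 49.5 CPM. Both were higher in each juvenile library than in each adult one and did not pass (edgeR adjusted p = 0.202 and 0.36). *pcna* overlapped between stages, at 131, 196, 53.4 and 215 CPM, as did *mki67* through the 2 UMIs of adult replicate 2. *mcm5* had 15.2, 26.8, 4.45 and 16.5 CPM and overlapped too, on 1 and 2 UMIs in the adult libraries. *ccnb1* had no adult UMI (edgeR adjusted p = 0.0769). The count of 7 fell to 1 with DESeq2, to 1 without juvenile replicate 1 and to 0 without any one of the other 3 libraries. In the single pair of libraries that shared a gate, juvenile and adult replicate 1, all members summed to 3588 and 1053 CPM. Radial glia were 322 of 2979, 397 of 3753, 41 of 129 and 7 of 25 neural cells, and between the same 2 libraries the 33 members went from 1569 to 181 CPM within radial glia and from 490.1 to 152 CPM within neurons. Markers of T cells, the kind with the most cell cycle RNA, moved with the fall. In neural cells the 14 T cell markers summed to 865, 355, 13.4 and 0 CPM, with 0, 1, 10 and 14 of them at 0, and their part in it was not tested.

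Of the other cell cycle genes, 7 of 77 passed in neural cells. Of these 6 fell, beside the 1.47% of all genes given above. *fen1*, the flap endonuclease of replication, had 22.7, 48.9, 0 and 0 CPM and was at least 6.58-fold higher in juveniles. *mad2l1*, of the spindle checkpoint, had 22, 41.5, 0 and 0 CPM and *aspm*, of the spindle poles, 21.8, 33.2, 0 and 0 CPM, at least 5.77-fold and 4.89-fold higher. The other 3 were *rrm2*, *cenpf* and *kifc1*. *cdkn2c*, an inhibitor of the D-type cyclin kinases, rose, with 7.90, 6.20, 118 and 0 CPM (log2 fold change 3.55 ± 0.71 SE, edgeR adjusted p = 0.000531). Its adult UMIs came from adult replicate 1 alone, and without that library the log2 fold change was -7.90. DESeq2 called none of the 77, leaving out adult replicate 2 left 1 call, *cdkn2c*, and leaving out any other library left 0.

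In mesenchyme 14 of the 15 members tested had lower estimates in adults. Yet 0 passed in edgeR, beside 0.343% of all genes that fell, and DESeq2 called 4. The median log2 fold change was -2.06 over the members and 0.00 over all genes. *cdk1* had 3.99, 16.2, 0 and 0.241 CPM (log2 fold change -5.51 ± 1.16 SE, edgeR adjusted p = 0.08). *mki67* had 4.49, 12, 0.304 and 0 CPM (edgeR adjusted p = 0.0781), *nusap1* 3.99, 21.9, 0.304 and 0.241 CPM (edgeR adjusted p = 0.0796) and *ube2c* 4.49, 28.2, 0 and 0.722 CPM (edgeR adjusted p = 0.118). In these 4 genes both juvenile libraries lay above both adult ones, and juvenile replicate 2 was the highest. The 4 called by DESeq2 were *cdk1*, *nusap1*, *ube2c* and *hmgb3a*.

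*top2a* had 2.99, 19, 0.607 and 0 CPM and *mcm5* 2.99, 10.6, 1.21 and 0.482 CPM in mesenchyme, both below the filter on low counts. *pcna*, by contrast, had 35.9, 66.3, 34 and 39.7 CPM, a log2 fold change of -0.17 ± 0.49, and *h2afx* 18.9, 12.7, 29.8 and 8.43 CPM. Both overlapped between stages, with adult replicate 2 above juvenile replicate 1 for *pcna* and adult replicate 1 the highest for *h2afx*. *hmgb2a* had 336, 586, 199 and 217 CPM (log2 fold change -0.86 ± 0.49). Summed by role, mitosis genes had 24.4, 162, 4.56 and 5.78 CPM and replication genes 91.7, 174, 46.8 and 57.1 CPM. The stages did not overlap in either sum. The juvenile gates, cells depleted of *cdh1* or *sp7* reporter, differed, and the single pair that shared a gate, juvenile and adult replicate 1, gave all members 769.6 and 404 CPM. Markers of other kinds moved between the stages in these sums. In mesenchyme the 14 T cell markers summed to 122, 64.9, 34.6 and 4.82 CPM (3, 5, 10 and 8 of them at 0) and the 27 neural markers to 477, 418, 83.2 and 96.6 CPM (2, 2, 4 and 4 at 0). The 6 smooth muscle markers summed to 136, 86.1, 1042 and 789 CPM and were higher in adults. The part of these kinds in the values was not tested. Without the low-count filter 13 members passed, and the count also changed when single libraries were left out. The share of all genes called by DESeq2 and without the filter is not given here. These counts are therefore not read as a result about the members.

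In T cells 25 of the members tested had lower estimates in adults and 6 higher, and roles and libraries did not share one direction. All 10 replication genes and all 4 chromatin genes tested had lower estimates. So did 8 of 13 mitosis genes and 3 of 4 cyclin and kinase genes. Of 31 members tested 0 passed in edgeR, beside 0.155% of all genes that fell. At an unadjusted p under 0.05 there were 5 of the 31, beside 922 of all 5806 genes tested. DESeq2 called 1, *hmgb3a*, beside 0.276% of all genes that fell. The median log2 fold change was -1.14 over the members and -0.43 over all genes. Replication genes summed to 776, 1535, 380.5 and 509 CPM, in which both adult libraries lay below both juvenile ones. Mitosis genes summed to 657, 721, 1221 and 14.5 CPM, so that adult replicate 1 was the highest and adult replicate 2 the lowest. Cyclins and *cdk1* had the same spread, 176, 157, 229.9 and 29.1 CPM. The T cells of the stages also differed in composition. Cells with a *rag* UMI, which held more cell cycle RNA in juveniles, were nearly all juvenile. The part of this in the stage values was not tested. Without adult replicate 1 the count was 2, without adult replicate 2 it was 4, and without either juvenile library it stayed at 0. The cells behind the high adult value were few: *mki67* was detected in 22.2% of 45 cells and *cdc20* in 15.6%. *hmgb3a* had 66.8 and 160.4 CPM in juveniles and no UMI in adults (edgeR adjusted p = 0.0548). The juvenile level pooled over both libraries was at least 7.66-fold higher, against a floor of 3 adult UMIs or 15.4 CPM. Neural markers moved with it, from 541 and 316 CPM in juveniles to 31.7 and 0 CPM in adults, and their part in it was not tested. *rrm2*, of the other cell cycle genes, fell from 162 and 241 CPM to 7.93 and 0 CPM (edgeR adjusted p = 0.0237), the only one of 59, and the call was lost without either juvenile library.

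**Figure D5:**
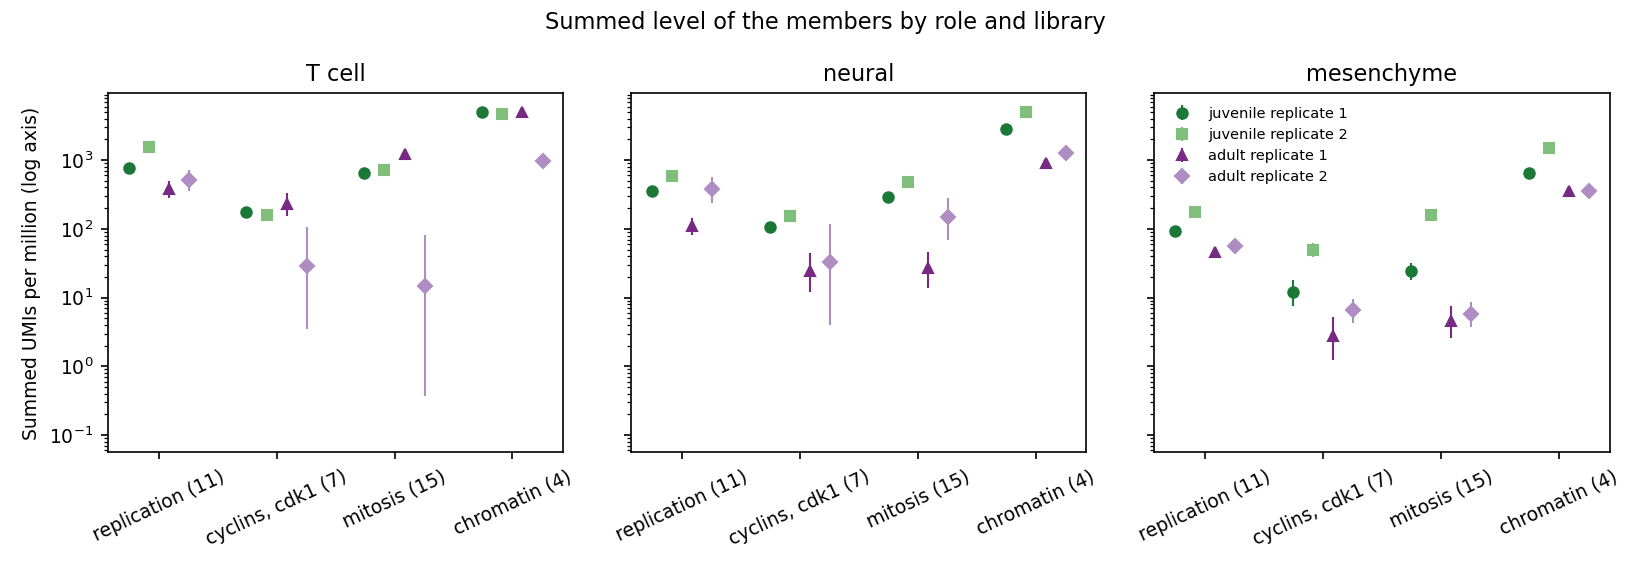
Summed level of the members in CPM (log axis) by role, for T cells, neural cells and mesenchyme in each library. Bars are exact Poisson 95% intervals. Adult replicate 1 is the highest library for mitosis genes in T cells, at 1221 CPM, and adult replicate 2 lies at 14.5 CPM.

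Cartilage and osteoblasts could be compared between stages only with 1 library on one side, whose spread was taken from the other. In cartilage 0 of 21 members passed in edgeR, beside 0.724% of all genes that fell, and DESeq2 called 0. The adult cartilage cells of both libraries, with the 7 cells that were left out of the test, held 74096 UMIs, so that 3 UMIs are 40.5 CPM. Of the 21 members, 16 had no adult UMI, and the juvenile level of each of them was under that floor. In osteoblasts 0 of 4 passed, beside 2.19% of all genes that fell, with 0 in DESeq2. The 4 were *dut*, *hmgb2a*, *hmgb2b* and *hmgb3a*, with lower estimates in adults. The inhibitor gene *cdkn1a*, of the other cell cycle genes, passed as higher in adult osteoblasts, with 25.9, 46.8 and 177 CPM (log2 fold change 2.48 ± 0.76 SE, edgeR adjusted p = 0.0331). This rests on 1 juvenile library and mostly on adult replicate 2, and the call was lost with DESeq2, library totals, no low-count filter and the looser gate. The higher value of adult replicate 2 was not particular to osteoblasts. *cdkn1a* had 44 and 189 CPM in mesenchyme and 91.3 and 198 CPM in neural cells of adult replicates 1 and 2. No kind had the opposite order, and the part of the library in the osteoblast value was not tested.

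Whether the stage change of a member differed between kinds was tested as an interaction with mesenchyme. In T cells 2 of 37 members passed, beside 0.333% of all genes in either direction. For *mki67* the adult to juvenile change was higher in T cells than in mesenchyme by 4.78 ± 1.19 on the log2 scale (edgeR adjusted p = 0.0252), resting on the 388 CPM of adult replicate 1. For *h2afx* it was lower by a log2 difference of -2.86 ± 0.75 (edgeR adjusted p = 0.0431). The median of this difference was -1.97 over all genes, so that *h2afx* lay less than 1 log2 unit below it. In cartilage 0 of 37 passed in edgeR, beside 0.175% of all genes, and in neural cells 0 of 37, beside 1.28% of all genes. DESeq2 called 0 in all 3. The T cell count was 0 without juvenile replicate 1, 0 without juvenile replicate 2 and 5 without adult replicate 2, and the neural one 2 without adult replicate 2. Of the other cell cycle genes *cdkn1a* passed in T cells, with a difference of -5.05 ± 1.01 (edgeR adjusted p = 0.00101), a call lost with DESeq2 and without juvenile replicate 1, juvenile replicate 2 or adult replicate 2. The *cdkn1a* difference, too, stands beside the median of -1.97 over all genes. The fall in neural cells is not shown by these counts to differ from that in mesenchyme.

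In juvenile T cells and neural cells, replication and mitosis genes were found in the same cells more often than their separate shares would give. Among thinned T cells, 36 of 730 and 68 of 652 in the juvenile libraries had both, where independent detection would give 23.9 and 41.6. No test was made of this. Among thinned neural cells the numbers were 45 and 97 against 20.7 and 55.2. The excess was not particular to these kinds, though the others had few such cells. Juvenile mesenchyme had 1 and 4 against 0.534 and 1.58, and juvenile cartilage 1 and 5 against 0.577 and 1.71. Osteoblasts of juvenile replicate 1 had 1 against 0.115. No thinned adult T cell or neural cell had both, where independent detection would give at most 1.1 in a library. Adult mesenchyme had 1 of 911 and 0 of 1325 thinned cells with both, against 0.189 and 0.506. These adult numbers are too small to compare with the juvenile ones. Of all cells kept, 1562 of 16245 juvenile cells (9.62%) and 62 of 5066 adult cells (1.22%) had at least 3 of the 33 members. The juvenile ones were 549 neural cells, 382 T cells, 63 cartilage cells, 31 mesenchyme cells and 3 osteoblasts, with 468 in no kind and 66 in other kinds. The adult ones were 12 T cells, 7 neural cells and 7 mesenchyme cells, with no cartilage cell or osteoblast, 17 in no kind and 19 in other kinds.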

How the data were processed

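Single cells were captured with 10x 3′ v2 chemistry, and the authors deposited filtered counts of UMIs per gene and barcode for 4 libraries, made with Cell Ranger (3.0.0 per the labels, 3.1.0 per the file headers) on GRCz11. Which annotation was used is not given in the sources used. Seurat 4.1.1 stands in the submitters' processing notes. Following the study's methods, cells with over 200 and under 2500 genes and under 25% mitochondrial UMIs were kept, and doublets were not removed. The members, marker lists and tests were chosen with earlier results of these data known. UMIs were summed per library and kind over all genes (Python 3.11.15, scanpy 1.11.5) and tested with edgeR 4.0.16 (R 4.3.3; TMM, low-count filter, quasi-likelihood, Benjamini-Hochberg adjusted p under 0.05): adult against juvenile within a kind, each kind against mesenchyme with library as a block, and their interaction. The study's methods state no test between stages. DESeq2 1.42.0, other scaling, filters, gates, doublet removal by score and leaving out each library were alternatives. The fits were tested on simulated data with the same mean profile for all kinds and libraries. The spread was fixed too, so that the simulation was simpler than the sums tested. In it the interaction recovered the smallest share of the known changes. What share it recovers in these sums is not known, and its low counts say little. P-values between stages measure the spread between libraries of pooled fish within a stage. With library as a block, they measure the spread left between the sums of the kinds once each library's own level is taken out. Genes named are those that passed (at most 10 per comparison, by size of change), 8 set members (*pcna*, *mki67*, *top2a*, *mcm5*, *cdk1*, *ccnb1*, *hmgb2a*, *h2afx*) where a kind held at least 20 UMIs, and at most 3 other cell cycle genes per direction. Members and other genes named beyond this, among them *kif20a*, *ccne2*, *hmgb2b*, *cenpf* and *kifc1*, were named after their values were seen. Symbols of 36 of the 37 members matched RefSeq names.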

Additional observations from a re-analysis of the deposited data

Results flagged for a closer look

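For 3 cell cycle genes the stage change differed between T cells and mesenchyme by the interaction test of edgeR with Benjamini-Hochberg adjustment. The difference for *mki67* was 4.78 on the log2 scale (adjusted p = 0.0252), from 116, 167, 388 and 14.5 CPM in T cells and 4.49, 12, 0.304 and 0 CPM in mesenchyme. The difference for *h2afx* was -2.86 (adjusted p = 0.0431), from 518, 336, 111 and 160.0 CPM in T cells and 18.9, 12.7, 29.8 and 8.43 CPM in mesenchyme. The difference for *cdkn1a*, of the other cell cycle genes, was -5.05 (adjusted p = 0.00101), from 48.5, 67.3, 0 and 29.1 CPM in T cells and 25.9, 45.9, 44 and 189 CPM in mesenchyme. Over all genes the median of this difference was itself negative, as given above, and the *h2afx* and *cdkn1a* values are to be read beside it. The adult T cell values rest on 45 and 35 cells. DESeq2 called none of the 3 genes, and none was called without either juvenile library. The call of *mki67* was also lost with at least 3 markers and with the highest doublet scores removed, that of *h2afx* with library totals, without the upper limit on genes and with the looser gate, and that of *cdkn1a* without adult replicate 2.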

How the results depend on the processing

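No paired analysis was possible because the labels give no replicate numbers that tie a juvenile to an adult library. Alternative values were counted for all members that passed and for other genes that passed (at most 3 per direction between kinds). Of these, 782 kept direction and call, 163 kept direction but lost the call, and 1 reversed. Alternatives in which a gene was not tested, as by the low-count filter, are not in these counts. The reversed gene, *cdkn2c* between stages in neural cells, had -7.90 without adult replicate 1, the library with all its adult UMIs, and 4.11 without adult replicate 2. The summed T cell level and the unthinned neural share of cells, which have no test, changed sign as given below. The T cell stage count of 0 became 1 with DESeq2, 1 with library totals, and 2 without the low-count filter, without the upper limit on genes, with at least 3 markers and with more markers than any other kind, and leaving out 1 library gave 0 to 4. The neural stage count of 7 was 1 with DESeq2 and 0 to 1 without a library. The mesenchyme count of 0 became 4 with DESeq2, 13 without the low-count filter and 1 with the looser gate, and 0 to 6 without a library. The osteoblast count of 0 became 1 without the low-count filter. The neural count of 15 against mesenchyme was 34 with library totals and 2 to 12 without a library, the T cell count of 33 was 25 to 35, and the osteoblast count of 1 was 0 with DESeq2, the looser gate and no library block, and 0 to 1 without a library. The T cell interaction count of 2 was 0 with DESeq2, 4 with library totals, 1 without the upper limit on genes, 1 with the highest doublet scores removed and 0 to 5 without a library, and the neural one 0 to 2. The cause of these changes was not tested. The share of all genes called changed with the setting too. In T cells between stages 0.155% of all genes fell in the main fit, 0.276% with DESeq2 and 0.531% without the upper limit on genes. Counts given here without such a share are not read as results about the members.

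Library totals moved the median log2 value of all genes by over 0.1 in the stage comparisons of T cells (-0.43 to -0.26), mesenchyme (0.00 to -0.24) and osteoblasts (0.01 to -0.22), in cartilage (-0.11 to -0.51) and osteoblasts (-0.34 to -0.53) against mesenchyme, and in the interactions of T cells (-1.97 to -1.11), cartilage (-3.26 to -2.89) and neural cells (-0.29 to -0.11), beside neural cells against mesenchyme as given above. The members' median kept its sign in each.

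The adult minus juvenile log2 difference of the summed level was -1.08 in T cells, 0.0482 with only the gate used at both stages and -2.16 to 0.00259 without a library. It was -1.16 in osteoblasts, -0.871 with the looser gate and -2.23 without chromatin genes. The adult minus juvenile difference in the share of cells with at least 3 members, in percentage points, was -37.4 in T cells, -25.4 in cartilage, -6.73 in neural cells, -20.0 in mesenchyme and -30.9 in osteoblasts. Without chromatin genes the differences were -11.5 in T cells, -5.78 in cartilage, 1.28 in neural cells, -3.24 in mesenchyme and -5.26 in osteoblasts. Thinned to 1000 UMIs they were -21.3 in T cells, -5.55 in cartilage, -17.7 in neural cells, -4.85 in mesenchyme and -5.77 in osteoblasts. Thinned to 500 UMIs they were -10.3 in T cells, -2.11 in cartilage, -11 in neural cells, -2.49 in mesenchyme and -3.51 in osteoblasts. With at least 2 members they were -53.8 in T cells, -39.0 in cartilage, -17.7 in neural cells, -34.7 in mesenchyme and -26.4 in osteoblasts. With at least 5 they were -14.5 in T cells, -7.70 in cartilage, -0.233 in neural cells, -3.94 in mesenchyme and -7.02 in osteoblasts. With only the shared gate they were -18.6 in T cells, -13.5 in cartilage, 2.21 in neural cells, -10.0 in mesenchyme and -30.4 in osteoblasts. Differences not named as thinned use all UMIs of a cell, so that depth enters them. In osteoblasts the difference was -32 without the upper limit on genes, -32 with at least 3 markers and -29.1 with the looser gate. Without a library the ranges were -48.2 to -26.5 in T cells, -37.3 to -13.5 in cartilage, -14.2 to 0.702 in neural cells, -28.7 to -11.3 in mesenchyme and -31.4 to -30.4 in osteoblasts. Sums of few adult cells limited the stage comparisons of T cells, neural cells and cartilage, and 57 juvenile cells that of osteoblasts. The interaction without adult replicate 1 could not be fitted, nor could the stage counts of cartilage and osteoblasts where a stage lost its only sum.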

Other observations

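Outside the 5 kinds, the 33 members other than chromatin genes summed to 503, 390.2 and 253 CPM in neutrophils of juvenile replicates 1 and 2 and adult replicate 1 (66, 53 and 179 cells) and to 236, 465 and 201 CPM in macrophages (45, 31 and 68 cells). Epithelial cells held 149, 493, 351 and 108 CPM in the 4 libraries (21, 227, 54 and 54 cells), endothelial cells 509.8, 359.6, 74.8 and 332 CPM (22, 15, 48 and 37 cells), and smooth muscle of the adult libraries 145 and 72 CPM (37 and 112 cells). Each of these values lay below that of T cells in the same library. In adult replicate 1 neutrophils, macrophages and epithelial cells lay above neural cells, and endothelial cells and smooth muscle below them. The juvenile values all lay below that of neural cells in the same library. Cells at or over the limit of 2500 genes were left out of the main comparisons and kept in the alternative without the upper limit on genes. Of these 23, 125, 7 and 4 cells, 34.8%, 38.4%, 42.9% and 0% had at least 3 of the 33 members.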
